A study of Mus musculus with 14 samples.

Results

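The chemokine genes Ccl1, Ccl3, Ccl4, Ccl5, Xcl1 and Cxcl10, which T cells can switch on after stimulation, were followed in mouse CD4+ T cells given interferon alpha together with a JAK inhibitor. They are the 6 members of a named set, out of 19752 genes that had a probe set annotated to 1 symbol alone. Each member had 1 such probe set. Cells were splenic CD4+ T cells of 6-week-old male C57BL/6 mice, obtained by negative selection and activated for 48 h with CD3/CD28 beads. All cultures then received interferon alpha at 100 U/ml with 1 of 7 inhibitors at its IC80, for 2 h or 8 h. The inhibitors are named here by target label, beginning with JAK1 (coded IFN.3404 in its title) and JAK1/2 (coded IFN.6221). A further compound was labelled PAN (coded IFN.6222). TYK2 was the label of the compound coded IFN.2485, and JAK2 that of IFN.3885. The JAK3 label was shared by a pair, told apart here by the last part of their codes, IFN.6226 and IFN.6228. Each inhibitor and time had 1 array, 14 in all. Bead activation and interferon were thus common to every group, and cells left without an inhibitor were not analysed here. No culture was repeated, so a p below rests on the spread between inhibitors, or on how unevenly they changed with time, and not on repeated cultures.

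Chemokines are small secreted proteins that draw cells through G protein-coupled receptors. Ccl3 and Ccl5 act on Ccr1. Ccl1 is the ligand of Ccr8, Xcl1 that of Xcr1 on cross-presenting dendritic cells, and Cxcl10 that of Cxcr3 on effector T cells. Ccl1, Ccl3, Ccl4 and Xcl1 are known as early products of antigen receptor stimulation, Ccl5 as a late one, and Cxcl10 as a gene induced by interferons. The receptor of interferon alpha signals through JAK1 and TYK2. The receptors of interleukin-2 and its relatives use JAK1 and JAK3.

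Array medians lay between 109 and 121 intensity units, and the log2 values of pairs of arrays correlated with r between 0.980 and 0.998. At 8 h the JAK1 inhibitor's array had the lowest mean r with the others of its time, 0.990. The T cell markers Cd3e, Cd3d, Cd3g, Cd4, Cd5 and Lat averaged 11.69 on the log2 scale at 2 h and 11.95 at 8 h. Background was judged by 2 marks explained below, 5.99 and 6.83. Of 8 granulocyte or mast cell markers all lay below 6.83 and 4 below 5.99. Of 8 NK cell markers 6 lay below 6.83 and 5 below 5.99, and of 9 macrophage or monocyte markers 7 and 5. B cell markers were measurable, with means per array of 7.47 to 7.63 at 2 h and 7.75 to 7.98 at 8 h, and of the CD8 T cell pair Cd8b1 averaged 8.99 and Cd8a 6.81. Of 10 dendritic cell markers 6 lay below 6.83 and 3 below 5.99, with H2-Aa, which B cells also express, at 9.53. Fewer cells of a type and less RNA per cell cannot be told apart in such samples.

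The promoters of Cxcl10 and Ccl1 are shown because Cxcl10 carries the main class difference below and Ccl1 is the other member whose window held both response element and kB letters. They come from RefSeq (GRCm38.p6), which gave a window for 4 of the 6 genes (Ccl1, Ccl3, Xcl1 and Cxcl10), from 250 bases before to 50 after the start. Capitals mark letters of an interferon-stimulated response element core (GAAANNGAA), an AP-1 site (TGANTCA) or the kB consensus, on either strand. The gamma-activated site TTCNNNGAA was searched too. Cxcl10 lies at chr5:92346638-92348889 and its window at chr5:92348840-92349139, minus strand. Ccl1 lies at chr11:82176666-82179812 and its window at chr11:82179763-82180062, minus strand.
Cxcl10: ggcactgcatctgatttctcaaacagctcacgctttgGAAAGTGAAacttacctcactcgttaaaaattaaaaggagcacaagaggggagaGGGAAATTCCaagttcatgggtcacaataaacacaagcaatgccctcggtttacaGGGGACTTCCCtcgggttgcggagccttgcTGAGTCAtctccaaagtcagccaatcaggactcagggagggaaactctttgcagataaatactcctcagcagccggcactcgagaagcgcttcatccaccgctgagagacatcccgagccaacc
Ccl1: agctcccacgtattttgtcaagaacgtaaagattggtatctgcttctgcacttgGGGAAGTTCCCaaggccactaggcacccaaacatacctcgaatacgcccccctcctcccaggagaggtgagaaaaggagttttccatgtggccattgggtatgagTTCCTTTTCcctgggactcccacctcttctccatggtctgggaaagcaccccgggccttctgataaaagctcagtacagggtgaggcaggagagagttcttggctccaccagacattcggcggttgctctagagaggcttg
Cxcl10 held the response element letters 213 bases before the start, kB letters at 159 and, as overlapping matches, at 104 and 103 bases before it, and an AP-1 match at 74. Ccl1 held the response element letters on the other strand at 91 bases before the start and overlapping kB matches at 196 and 195. Ccl3 had 1 response element match, on the other strand at 39 bases before the start, and the Xcl1 window had none of the 4. Of 32817 promoter windows, 8.55% held the response element core, 8.29% the gamma-activated site, 7.81% the AP-1 letters and 8.46% the kB consensus. A match describes letters and is not shown to be a site.

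Levels were set against background first. Detection p-values were not used here. The brightest probe sets of 1203 olfactory, vomeronasal and trace amine receptor genes, which T cells are not known to use, served as a yardstick. Their median was 4.32, their 95th percentile 5.99 and their 99th percentile 6.83 (log2 means over 14 arrays). Ccl5 averaged 9.79, above every one of these receptor genes and at the 87.7th percentile of all genes. Ccl3 averaged 7.32, Cxcl10 7.30 and Ccl1 6.88, also above the 99th percentile, though some receptor genes were brighter. Xcl1 averaged 6.64 and Ccl4 6.26, between both marks. None of the 6 means was below the 95th percentile, which was the mark for being near background, while 2 were below the 99th. Single arrays fell under 6.83 in 14 of 14 cases for Ccl4, 13 for Xcl1, 6 for Ccl1, 2 for Cxcl10 and 1 for Ccl3. Ccl4 fell under 5.99 on 2 arrays and was the 1 member below the limit for testing (6.29). These marks place each probe set against background and do not rank the genes' transcript levels, since probe sets differ in brightness.

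**Figure D1:**
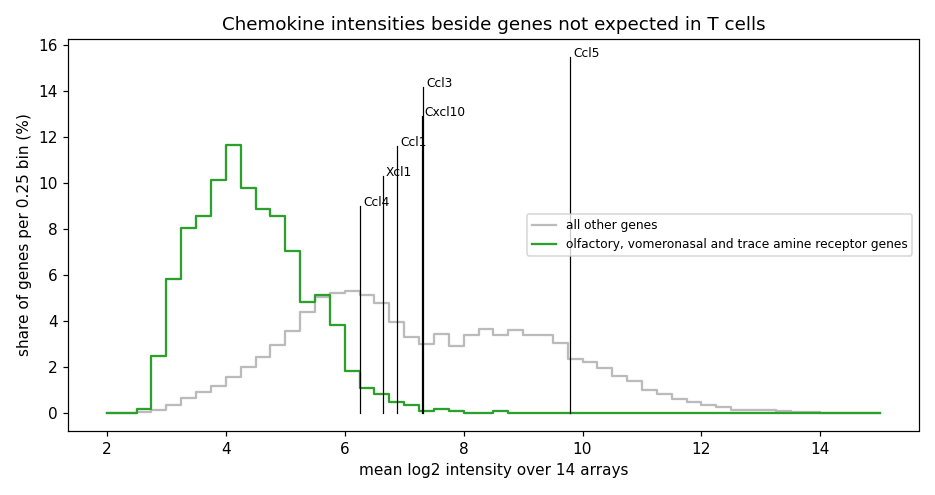
Mean log2 intensity over 14 arrays of the 6 chemokine probe sets (vertical lines, whose heights carry no value) beside the distribution, as a percent of genes per 0.25 bin, of 1203 receptor genes (green) and all other genes (grey). Ccl5, at 9.79, lies beyond the receptor genes, while the others lie within their upper tail. Ccl4 (6.26) and Xcl1 (6.64) lie lowest.

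Ccl5 rose and Cxcl10 fell between 2 h and 8 h with all 7 inhibitors. The question here was which chemokines changed with time in interferon when each inhibitor served as its own pair. Among 11761 genes tested, 21.4% rose and 28.2% fell at an adjusted p under 0.05 (limma, Benjamini-Hochberg over all genes), so a change with time was common. Of the 5 members tested, 2 rose (Ccl5 and Ccl1) and 1 fell (Cxcl10). How many of all genes had 2 h and 8 h values without overlap, or moved 1 way with all 7 inhibitors, was not counted.

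Ccl5, which draws effector T cells and monocytes, had log2 intensities at 2 h of 9.46 (JAK1), 9.43 (JAK1/2), 9.37 (PAN), 9.37 (TYK2), 9.17 (JAK2), 9.49 (JAK3, IFN.6226) and 9.52 (JAK3, IFN.6228). At 8 h they were 10.07, 10.12, 10.33, 9.99, 9.90, 10.51 and 10.40 in the same order. The lowest 8 h array was above the highest 2 h array, and the JAK2 inhibitor gave the lowest value at both times. The rise was 0.79 on the log2 scale (SE 0.06, 1.73-fold, limma adjusted p = 1.2e-07). Without the 8 h array of the JAK1 inhibitor it was 0.82. NK cells and CD8 T cells also make Ccl5. The NK cell list averaged 5.69 at 2 h and 5.77 at 8 h, and the CD8 T cell pair 7.76 and 8.04. Their part in the rise was not tested.

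Cxcl10, the interferon-induced ligand of Cxcr3, had log2 intensities at 2 h of 7.44 (JAK1), 7.49 (JAK1/2), 7.47 (PAN), 7.19 (TYK2), 8.09 (JAK2), 8.29 (JAK3, IFN.6226) and 8.14 (JAK3, IFN.6228). At 8 h they were 6.46, 6.92, 6.96, 6.81, 6.99, 6.94 and 6.98. Every 2 h array was above every 8 h array, and the 8 h values lay close together apart from that of the JAK1 inhibitor. The difference was -0.87 (SE 0.11, 1.82-fold, limma adjusted p = 1.35e-05), and -0.85 without the 8 h array of the JAK1 inhibitor. The 8 h values, from 6.46 to 6.99, lay around the 99th percentile of the receptor genes (6.83).

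**Figure D2:**
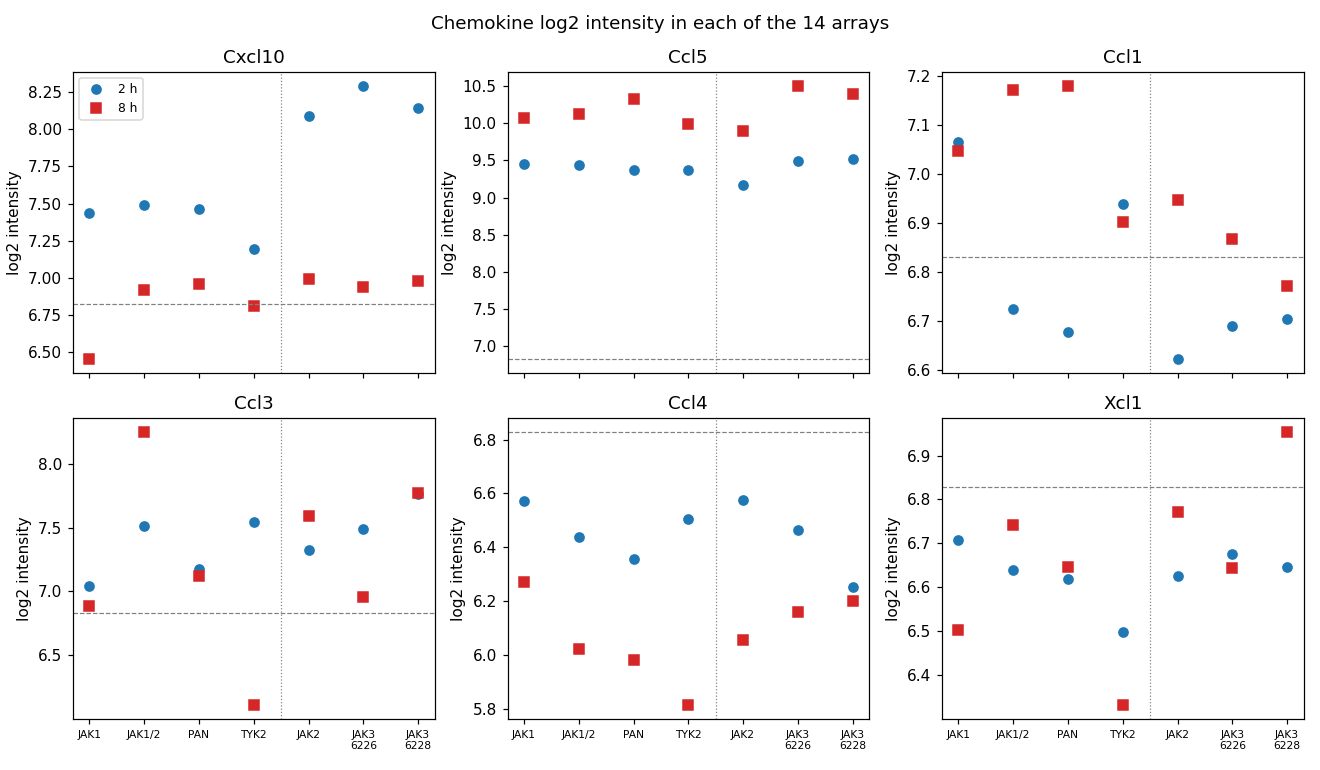
Log2 intensity of each chemokine (y axis, a separate scale per panel) with each inhibitor (x axis) at 2 h (blue circles) and 8 h (red squares), 1 array per point. The dotted vertical line parts the 4 inhibitors naming JAK1 or TYK2 (left) from the other 3, and the dashed line is the 99th percentile of the receptor genes (6.83). The 3 inhibitors on the right gave Cxcl10 values at 2 h of 8.09 to 8.29, above all others.

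Ccl1, the ligand of Ccr8, lay between 6.62 (JAK2) and 7.06 (JAK1) at 2 h, with a median of 6.70, and between 6.77 (JAK3, IFN.6228) and 7.18 (PAN) at 8 h, with a median of 6.95. The values of the 2 times overlapped, and 5 of 7 inhibitors gave a higher 8 h value. The mean rise was 0.21 (SE 0.08, limma adjusted p = 0.0361). This call was lost with quantile normalization (limma adjusted p = 0.0652), median centring (limma adjusted p = 0.0805) and cyclic loess (limma adjusted p = 0.0866), with no filter on dim genes (limma adjusted p = 0.0545), with the JAK3 pair averaged (limma adjusted p = 0.0507), and without the JAK1/2, PAN, JAK2 or JAK3 (IFN.6226) inhibitor (limma adjusted p = 0.103, 0.128, 0.0645 and 0.0628).

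Ccl3, a ligand of Ccr1 that recruits monocytes and T cells, had the widest spread of the 6 at 8 h. At 2 h its log2 intensities were 7.04 (JAK1), 7.51 (JAK1/2), 7.18 (PAN), 7.55 (TYK2), 7.32 (JAK2), 7.49 (JAK3, IFN.6226) and 7.76 (JAK3, IFN.6228). At 8 h they were 6.89, 8.25, 7.12, 6.11, 7.59, 6.96 and 7.77. The 8 h values ran from the TYK2 inhibitor to the JAK1/2 inhibitor over 2.14 log2 units, against 0.72 at 2 h. The SD was 0.24 at 2 h and 0.70 at 8 h (n = 7 each). Its mean difference over time was -0.17 (SE 0.18, limma adjusted p = 0.457), and 0.04 without the TYK2 inhibitor. The macrophage or monocyte list averaged 6.09, 6.06, 5.87, 5.97, 5.92, 5.94 and 5.87 at 8 h, with the inhibitors in the same order. Its part in the Ccl3 values was not tested.

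Xcl1, which attracts cross-presenting dendritic cells, ranged from 6.50 (TYK2) through a median of 6.64 to 6.71 (JAK1) at 2 h and from 6.33 (TYK2) through 6.65 to 6.95 (JAK3, IFN.6228) at 8 h. The TYK2 inhibitor gave the lowest value at both times. The mean difference over time was 0.03 (SE 0.07, limma adjusted p = 0.784), with a 95% interval of -0.13 to 0.18, and its sign changed with another scaling.

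Ccl4, a close relative of Ccl3, ranged from 6.25 (JAK3, IFN.6228) through 6.46 to 6.57 (JAK2) at 2 h and from 5.81 (TYK2) through 6.06 to 6.27 (JAK1) at 8 h. It was lower at 8 h with 7 of 7 inhibitors, with a mean difference of -0.38, and all its values lay below the 99th percentile of the receptor genes. It was not tested with the filter. With no filter its limma adjusted p was 9.15e-04. The annotated span of Ccl4 (chr11:83648624-83664683) overlaps that of Ccl3 (chr11:83647843-83649378), so the probe sets' separation of these genes is uncertain.

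**Figure D3:**
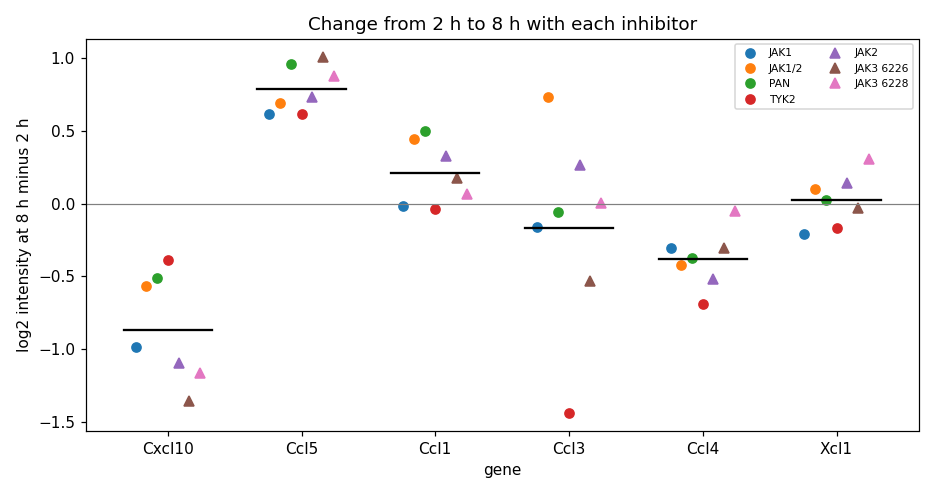
Log2 intensity at 8 h minus that at 2 h (y axis) for each chemokine (x axis), 1 point per inhibitor. Circles are inhibitors naming JAK1 or TYK2, triangles the others, and black bars the means of 7. Cxcl10 lies below 0 and Ccl5 above 0 with every inhibitor, and Ccl3 runs from -1.44 to 0.73.

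Cxcl10 was the 1 member that separated the inhibitors by target at 2 h. The 4 inhibitors naming JAK1 or TYK2 (PAN taken to include JAK1) were compared with the JAK2 and JAK3 inhibitors, since the interferon alpha receptor uses JAK1 and TYK2. Cxcl10 was 7.40 ± 0.14 (SD, n = 4) with the former and 8.18 ± 0.11 (SD, n = 3) with the latter. The difference was -0.78 (SE 0.09, 95% interval -0.97 to -0.59, 1.72-fold lower, limma adjusted p = 8.41e-04), and the groups did not overlap. Of all genes tested, 0.697% were called in this comparison and 5.03% had values without overlap. The call held in all but 1 of the alternatives tried. A filter at the 60th percentile left Cxcl10 out of the test.

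The other 4 tested members were not called at 2 h (each limma adjusted p = 0.995), and Ccl4 was not tested. Their class differences were 0.18 for Ccl1 (95% interval -0.03 to 0.39), -0.20 for Ccl3 (-0.49 to 0.08), 0.01 for Ccl5 (-0.17 to 0.20) and -0.03 for Xcl1 (-0.19 to 0.13). The interval of Cxcl10 did not reach those of these 4. The Cxcl10 difference was then set against each of the others within arrays. Cxcl10 minus Ccl1 differed between the classes by -0.96, minus Ccl4 by -0.82, minus Ccl5 by -0.79 and minus Xcl1 by -0.75, without overlap. An exact two-sided permutation test gave p = 0.0571 for each, the smallest that 4 against 3 allows (0.0714 adjusted over 5 members). Cxcl10 minus Ccl3 differed by -0.57, with exact permutation p = 0.114 (0.114 adjusted). The design thus could not reach 0.05 in this test.

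**Figure D4:**
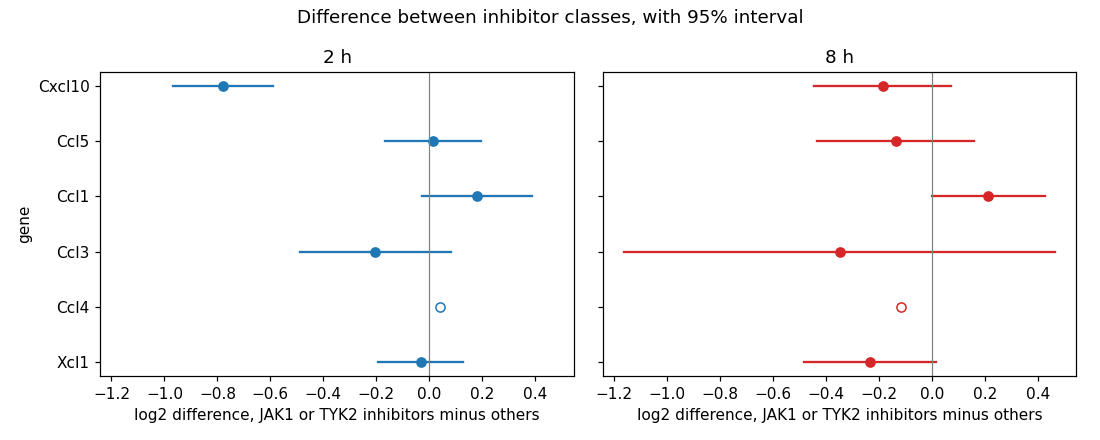
Log2 difference between the 4 inhibitors naming JAK1 or TYK2 and the other 3 (x axis) for each chemokine (y axis) at 2 h (left) and 8 h (right), with 95% intervals from limma. Open circles mark Ccl4, which was not tested. At 2 h the Cxcl10 interval (-0.97 to -0.59) lies apart from 0.

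At 8 h no class difference among the members was called. Limma called 0 of all genes tested (a percent called of 0), with 1838 at an unadjusted p under 0.05, and 19.2% had values without overlap, among them no member. The 8 h values of Cxcl10 lay around the 99th percentile of the receptor genes (6.83), from 6.46 to 6.99. They differed between the classes by -0.19 (SE 0.12, 95% interval -0.44 to 0.07, limma adjusted p = 0.379), and by -0.08 without the array of the JAK1 inhibitor. The others were 0.21 for Ccl1, -0.35 for Ccl3, -0.12 for Ccl4, -0.14 for Ccl5 and -0.23 for Xcl1, and that of Ccl4 was -0.20 without the JAK1 array. With 1 inhibitor left out, the Ccl3 difference ran from -0.73 (without JAK1/2) to -0.02 (without TYK2), and that of Ccl5 from -0.32 (without JAK2) to -0.017 (without JAK3, IFN.6226). Set against the other members within arrays, Cxcl10 minus Ccl1 differed by -0.40 (exact permutation p = 0.0571, 0.286 adjusted over 5), and for the other 4 the differences lay between -0.07 and 0.16 (0.971 adjusted, exact permutation).

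The change of Cxcl10 from 2 h to 8 h averaged -0.61 ± 0.26 (SD, n = 4) with inhibitors naming JAK1 or TYK2 and -1.20 ± 0.13 (SD, n = 3) with the others, without overlap. The difference was 0.59 (SE 0.15) and did not pass the test (limma adjusted p = 0.46). The 8 h values in these changes lay around the 99th percentile of the receptor genes (6.83), as given above. Of all genes 0.0255% were called and 8.99% had values without overlap. Without the JAK1 inhibitor the difference was 0.72 (limma adjusted p = 0.0527). In this fit the variance trend follows the mean difference of each gene. With the trend on mean intensity, an alternative chosen after the results were seen, 12 genes were called in place of 3. The limma adjusted p of Cxcl10 was then 0.376, or 0.0158 when the JAK1 inhibitor was left out as well. In that last fit 40 genes with a positive difference and 1 with a negative one were called among 11761 tested. None of the 5 tested members passed in the fit with all 7 inhibitors.

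Single inhibitors were compared with the other 6 over both times, and 0 of 35 member tests were called by limma. The share of all genes called was 7.77% for JAK1, 0.0085% for JAK1/2, 0.0765% for JAK2 and 0 for PAN, TYK2 and both JAK3 inhibitors (38, 569, 375 and 811 genes at an unadjusted p under 0.05). The largest member differences were those of Ccl3, at 0.65 with the JAK1/2 inhibitor (SE 0.25, limma adjusted p = 0.935) and -0.58 with the TYK2 inhibitor (SE 0.25, limma adjusted p = 0.971). Cxcl10 with the JAK1 inhibitor was -0.41 (SE 0.15, limma adjusted p = 0.113), and -0.34 (SE 0.21, limma adjusted p = 0.578) without its 8 h array, where limma called 232 genes in place of 914. Ccl5 with the JAK2 inhibitor was -0.30 (SE 0.09, limma adjusted p = 0.323).

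All 21 pairs of inhibitors were then compared for each tested member, and 0 passed after adjustment over all genes. The inhibitors' structures are not given, so they are compared by target label alone. Intervals at 95% left out 0 for 6 pairs in Cxcl10, 6 in Ccl5, 5 in Ccl3, 2 in Xcl1 and 1 in Ccl1. They are not adjusted, the pairs share arrays, and the same count over all genes was not made. For Cxcl10 the 6 pairs set the JAK1 or TYK2 inhibitor against the JAK2 or a JAK3 inhibitor. The widest was JAK1 against JAK3 (IFN.6226), at -0.67 (95% interval -1.10 to -0.24), or -0.60 (-1.12 to -0.08) without the JAK1 array of 8 h. For Ccl5 the widest was JAK2 against JAK3 (IFN.6226), at -0.47 (-0.71 to -0.23). The JAK2 and TYK2 inhibitors gave the lowest means of Ccl5 over both times, 9.53 and 9.68.

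Inhibitors naming JAK1 or JAK3, the kinases of interleukin-2 receptors, were compared with the JAK2 and TYK2 inhibitors on the mean of both times. Ccl5 was 9.87 ± 0.10 (SD, n = 5) against 9.61 ± 0.11 (SD, n = 2), a difference of 0.26 (SE 0.08, limma adjusted p = 0.999). The platelet chemokines Ppbp and Pf4 differed in the same direction, by 1.35 (SE 0.37) and 0.41 (SE 0.10), each with a limma adjusted p = 0.999. Their part in the Ccl5 values was not tested. Limma called 0 genes of all tested (a percent called of 0), with 243 at an unadjusted p under 0.05. The other members differed by 0.03 to 0.26, with Cxcl10 at 0.04.

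Genes with a known role beside these chemokines were read from lists. Among 28 interferon-induced genes tested, 20 were lower at 2 h with inhibitors naming JAK1 or TYK2 and 0 higher, with a median difference of -1.13 against 0.01 over all genes. Rsad2, an antiviral radical enzyme, differed by -1.95, the oligoadenylate synthetase relative Oasl2 by -1.72 and Oas2 by -0.99. Stat2, which carries the interferon alpha signal, differed by -1.12. Of 24 T cell activation genes tested, 0 were called by limma in that comparison (median 0.02), where 483 of all genes had an unadjusted p under 0.05. At 8 h limma called 0 of the 28 interferon-induced genes between the classes, and 28 of 28 had a negative difference, with a median of -0.63 against -0.08 over all genes.

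Over time, of the interferon-induced genes 24 rose and 1 fell (median 0.82 against 0.02 over all genes), while Cxcl10 fell. Of the activation genes 1 rose and 23 fell (median -0.97). Among the latter, the nuclear receptors Nr4a3 and Nr4a1 differed by -3.27 and -2.37 and Il2, the growth factor of T cells, by -2.69. Ccl5 rose over the same hours.

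The receptors of these ligands were partly measured. Ccr8, the receptor of Ccl1, fell from 10.94 to 8.44 (difference -2.50, SE 0.07, limma adjusted p = 1.05e-11). Cxcr3, the receptor of Cxcl10, rose from 9.73 to 10.37 (difference 0.63, SE 0.06, limma adjusted p = 4.58e-07). Ccr1, Ccr3 and Xcr1 averaged 4.32, 4.90 and 5.77, below the 95th percentile of the receptor yardstick.

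Of 32 other chemokine ligands 30 had a probe set and 10 were tested. With time 5 rose, namely Ppbp by 0.50, Pf4 by 0.36, Cxcl1 by 0.24, Ccl19 by 0.22 and Ccl11 by 0.20. Ccl17 fell, with a difference of -0.41. Of all genes tested, 21.4% rose and 28.2% fell with time. Ccl11, Ccl17 and Ccl19 averaged 6.37, 6.44 and 6.73, below the 99th percentile of the receptor yardstick (6.83). None of the 10 was called by limma between the classes at 2 h. Cxcl9 and Cxcl11, the other ligands of Cxcr3, averaged 6.02 and 5.25 and were not tested.

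The genes most like each member were ranked by Pearson r of log2 values centred within each time over the 14 arrays, as a description that shares all arrays. They are the highest among all genes tested, and how high r runs by chance in such a search was not tested. Cxcl10 was most like Oasl1 (0.943), Trim56 (0.932) and Ifit2 (0.920). Ccl5 was most like Ephx1 (0.876), Fcer1g (0.875) and Ppbp (0.840), and Ccl3 like St6galnac6 (0.843), Tomm40 (0.834) and Ccdc12 (0.829). Xcl1 was most like N4bp2l1 (0.859), Srp72 (0.838) and Dyrk2 (0.834), and Ccl1 like Gstm3 (0.820), Wbp1l (0.801) and Fbxo31 (0.786). Oasl1 and Ifit2 are on the interferon-induced list, and none of the genes named for the other 4 members is. Values were not centred within inhibitor class, so the class difference of Cxcl10 at 2 h enters its r. Oasl1, Trim56 and Ifit2 differed between the classes at 2 h by -0.66, -0.32 and -0.94. Between members, r was highest for Ccl3 and Xcl1 (0.727) and lowest for Ccl1 and Cxcl10 (-0.468).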

How the data were processed

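The deposited values are intensities, 1 per probe set and array of the Affymetrix Mouse Gene 1.0 ST type. The authors used Affymetrix Power Tools and RMA, per the submitters' processing notes, with no versions given. The values were positive (4.78 to 22879), so they were taken as linear and log2-transformed. Which arrays were normalized together is not given in the sources used here.

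Of 24922 probe sets 21425 carried 1 symbol, 1399 several and 2098 none. The brightest probe set stood for a gene. Genes with a mean at or above the 40th percentile of these probe sets were tested (11761). Tests used R 4.3.3 and limma 3.58.1 (lmFit, eBayes with trend=TRUE), with inhibitor and time as terms for time and single inhibitors, and 1 value per inhibitor for classes. For the class difference in change, the trend was also put on mean intensity after the first count was seen. That fit is an alternative. The threshold was an adjusted p of 0.05. Steps were tested on simulated data. Figures used Python 3.11.15 and matplotlib 3.10.9.

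Named genes are the members, the 3 most like each, every called gene or the 2 strongest of the short lists, and the 3 strongest of the others. Cd8a, Cd8b1, H2-Aa, Cxcl9, Cxcl11 and untested receptors were named after their values were seen. Members and lists were chosen with earlier results of these data known. Alternatives were other scalings, filters, probe set rules, variance moderation, an offset of 50, no pairing, and inhibitors or arrays left out.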

Additional observations from a re-analysis of the deposited data

Results flagged for a closer look

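Extreme arrays were looked for in 24 sets of values, and 4 held a value whose gap to its neighbour passed Dixon's 95% critical value, which chance passes in about 1 of 20 sets. Ccl5 with the JAK2 inhibitor at 2 h was 9.17, with the next value at 9.37. Xcl1 with the TYK2 inhibitor at 2 h was 6.50, with the next at 6.62. Cxcl10 with the TYK2 inhibitor at 2 h was 7.19, lowest of the 4 inhibitors naming JAK1 or TYK2, with the next at 7.44. Cxcl10 with the JAK1 inhibitor at 8 h was 6.46, with the next at 6.81.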

How the results depend on the processing

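Over 47 results and 23 settings, 723 of 784 alternative values were labelled unchanged, 37 changed sign and 9 lost a call in a test. A further 3 belonged to called genes left untested by a filter, 2 gained a call and 10 moved. Unchanged meant the same direction and side of the threshold where a value was tested. Untested values stood as unchanged if not called in the main fit, or, for Ccl4, if they shifted by less than an SD. Counts stood as unchanged after a small shift, such as 3 members called over time falling to 2 with quantile normalization. The 2 h class call of Cxcl10 and the time calls of Ccl5 and Cxcl10 held wherever these genes were tested. A filter at the 60th percentile left 1 member called for time and 0 for the 2 h classes, and the Cxcl10 difference of -0.78 was not tested there. Near background were 2 members by the 99th percentile mark and 1 by the 40th percentile of probe sets. The Xcl1 time difference turned to -0.026 (quantile), -0.011 (median centring) and -0.025 (cyclic loess). The class difference in change of Ccl1 turned to -0.021 (median centring), -0.023 (cyclic loess) and -5.77e-04 (JAK3 pair averaged). At 8 h, Cxcl10 minus Ccl4 turned to 0.043 (cyclic loess) and 0.125 (without the JAK1 array), and Cxcl10 minus Ccl5 to 0.0046 (offset of 50) and 0.043 (without that array). With the JAK3 pair averaged, Cxcl10 differed by -0.033 between JAK1 or JAK3 and the others. The trend on mean intensity, chosen after seeing the data, left 0 members called for the change. When the JAK1 inhibitor was left out too, 1 (Cxcl10) was called, where 40 of 11761 genes were called positive and 1 negative. The causes were not tested.

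Leaving out each inhibitor in turn gave these ranges. For time, Ccl3 ran from -0.318 to 0.044 and Xcl1 from -0.021 to 0.064. For the 2 h classes, Ccl4 ran from -0.050 to 0.111, Ccl5 from -0.098 to 0.076 and Xcl1 from -0.063 to 0.0062. For the change, Ccl1 ran from -0.060 to 0.120 and Ccl3 from -0.466 to 0.258, with 0 members called each time. Between JAK1 or JAK3 and the others, Ccl1 ran from -0.031 to 0.105, Ccl3 from -0.059 to 0.569, Ccl4 from -0.044 to 0.112, Xcl1 from -0.021 to 0.263 and Cxcl10 from -0.232 to 0.306. At 8 h, Cxcl10 minus Ccl3 ran from -0.173 to 0.504, minus Ccl4 from -0.145 to 0.125, minus Ccl5 from -0.184 to 0.145 and minus Xcl1 from -0.034 to 0.141. The JAK1 array of 8 h could not be left out where both times of an inhibitor are needed. Without pairing by inhibitor, 3 members were called over time. With 1 array per group, and Ccl4 and Xcl1 within the range of background genes, small differences cannot be resolved.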
